A study of Mus musculus with 8 samples.

Results

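The genes described here are the cytochrome P450 genes of families 1 to 4, taken as every row of the deposited count table whose gene name is Cyp followed by a family number from 1 to 4, a subfamily letter and a gene number. The rule found 75 genes among 55487 named rows, 3 in family 1, 48 in family 2, 7 in family 3 and 17 in family 4. All 75 are annotated as protein-coding in GENCODE M21, and 39 further rows with such names fell outside the rule, 32 of them pseudogenes by name. Of those 39 rows 1 was tested, and none had more than 18 counts in a library. RNA came from ileal crypt cells of C57BL/6 mice given vehicle (4 libraries) or CPT-11, the topoisomerase I poison irinotecan, at 20 mg per kg for 7 days (4 libraries). Age, sex and the number of mice per library were not in the labels used here, so the p-values rest on library-to-library spread, part of which may be technical. Crypts were freed from the ileum with EDTA and shaking and dissociated with trypsin, and no step selected epithelial cells, so other mucosal cells could be carried along.

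Cytochromes P450 are haem enzymes, most of them in the endoplasmic reticulum, that insert oxygen into their substrates with electrons from the reductase Por. Families 1, 2 and 3 hold most enzymes of foreign-compound metabolism, whose expression in gut and liver is set largely by the ligand-activated regulators AHR (for Cyp1a), CAR (Nr1i3, for Cyp2b) and PXR (Nr1i2, for Cyp3a). Family 4 mainly hydroxylates fatty acids and eicosanoids at or near the end of the chain. In the small intestine these enzymes act mostly in absorptive enterocytes, and enzymes of subfamily 3A oxidise irinotecan itself to less active products.

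Total counts per library ranged from 20790164 to 23479121, so that 1 count was worth between 0.0418 and 0.0617 CPM (counts scaled to a common library size). CPT-11 replicate 2 stood apart from the other CPT-11 libraries, with Spearman rho of 0.931 to 0.962 across genes against 0.973 to 0.988 among the others. It also had 8.28% of its reads in genes above the upper quartile of length, against 11.1% to 16.6% in the other 7 libraries. Absorptive enterocyte markers were present in every library and summed stem cell markers were lower with CPT-11, with values given beside the P450 levels near the end. A difference in the number of cells of a type and a difference in RNA per cell cannot be told apart in these bulk samples.

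Of the 75 genes, 56 had a count in at least 1 library, 33 reached 10 counts in a library, and 28 passed the expression filter and were tested. CPT-11 libraries held more Cyp3a11, Cyp2c55 and Cyp4f17 and less Cyp2s1, Cyp2j9 and Cyp2e1 than vehicle libraries, and the other 22 tested genes did not pass. These 6 calls (adjusted p below 0.05 by edgeR's quasi-likelihood test, with Benjamini-Hochberg adjustment over all 14011 genes tested) are 21.4% of the tested members, beside 5.5% of all genes tested. In single directions the background was 2.98% higher and 2.52% lower. Among the 6, Cyp2e1 reached 10 counts only in vehicle libraries, so it entered the test through the group where it was higher. The fold change was above 0 for 20 of the tested members and below 0 for 8, with a median log2 fold change of 0.51 beside 0.01 over all genes tested. In 7 of 28 the libraries of the groups did not overlap, 4 with CPT-11 above and 3 below, beside 18.5% of all genes tested (8.41% above and 10.1% below).

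**Figure D1:**
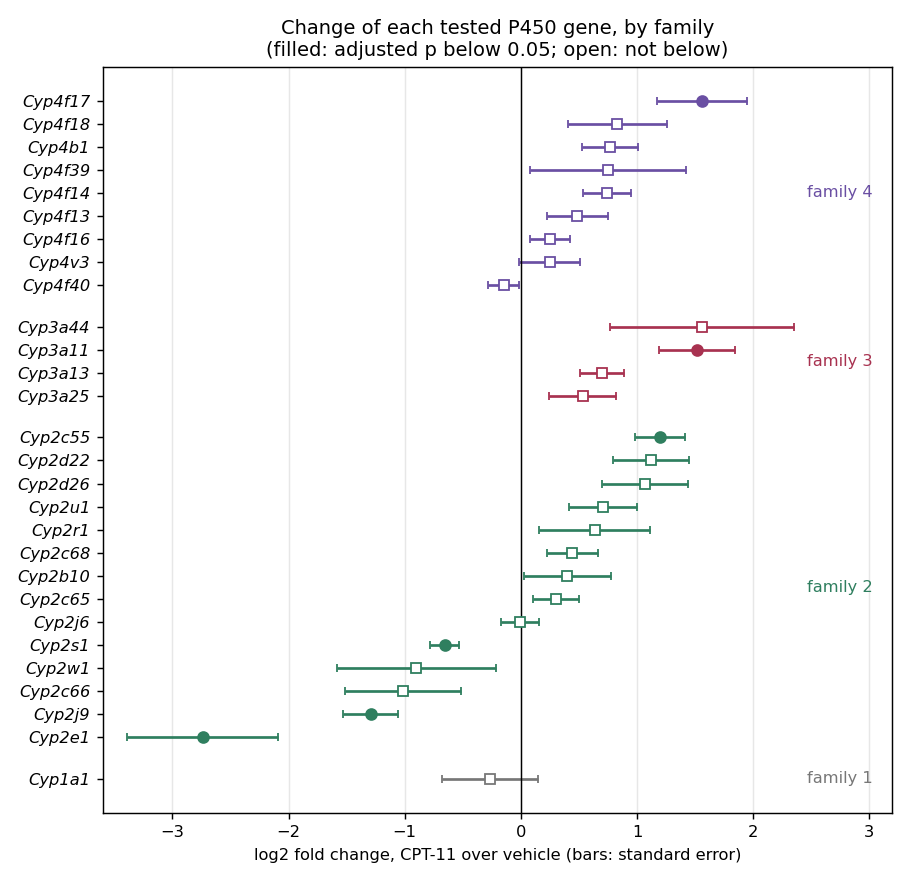
Log2 fold change (CPT-11 over vehicle, x axis) with its standard error for the 28 tested P450 genes, grouped by family; filled circles have an adjusted p below 0.05, open squares do not. All 4 tested genes of family 3 and 8 of 9 of family 4 lie above 0, while family 2 spreads from -2.74 (Cyp2e1) to 1.20 (Cyp2c55).

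The called genes were spread over 3 of the 4 families. In family 1 only Cyp1a1 was tested, and it was not called. Family 2 had 14 tested genes, with 1 higher and 3 lower (median log2 fold change 0.35). Family 3 had 4, with 1 higher and 0 lower (median 1.11), and family 4 had 9, with 1 higher and 0 lower (median 0.74). For families 1, 3 and 4, DESeq2, limma-voom and edgeR at an unadjusted p below 0.05 also gave 0 lower. Higher genes at the unadjusted threshold numbered 4 in family 2, 2 in family 3, 3 in family 4 and 0 in family 1, at a threshold where 13.4% of all genes tested were higher and 11.2% lower. DESeq2 called 3, 2, 3 and 0 higher, beside 7.47% of all genes. Over all members DESeq2 called 3 lower (6% of all genes lower), and limma-voom called 2 higher (2.95% of all genes) and 3 lower (2.72%). Whether the families differ from each other was not tested, since their members share libraries and, within subfamilies, sequence.

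The counts of called members depended on single libraries. Leaving out vehicle replicate 1 or 3 brought the number higher to 0, and leaving out vehicle replicate 4 or CPT-11 replicate 1 brought it to 1. The number lower came to 0 when vehicle replicate 3 was left out and to 1 when vehicle replicate 2 or 4 was. The number of all genes called also changed in those fits, which called 240, 403, 236 and 416 genes for vehicle replicates 1 to 4 in turn and 392 for CPT-11 replicate 1. More members were called in other fits, and so were more genes in all. DESeq2 called 8 members higher (1884 genes called in all, 7.47% of those tested higher). Subtracting a gene-length trend per library gave 5 (1285 in all, 4.62% higher and 4.55% lower), and leaving out CPT-11 replicates 2 and 4 together gave 6 (1212 in all, 4.36% higher and 3.94% lower). The number lower was 3 in each of these 3 fits. The genes added as higher in these fits came from Cyp4f14, Cyp3a13, Cyp4b1, Cyp2d22 and Cyp2d26, described below. Those lower were not the same in every fit. Without CPT-11 replicates 2 and 4, Cyp2e1 was not called (edgeR adjusted p = 0.0637) and Cyp4f15 was (0.0401). Cyp4f15 entered that fit through vehicle libraries alone.

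Levels between genes are compared here per kilobase of the gene length in the deposited table. In vehicle libraries Cyp4f14 led, at 289 ± 46.2 CPM per kilobase (mean ± SD, n = 4), followed by Cyp4v3 at 76.9 ± 21.3, Cyp2d26 at 73.7 ± 15.3 and Cyp3a13 at 56.9 ± 11.4 CPM per kilobase. The lowest vehicle library of Cyp4f14 stood above every vehicle library of the other members, whereas the vehicle ranges of Cyp4v3, Cyp2d26 and Cyp3a13 overlapped. Below them Cyp4f40 stood at 47.7 ± 4.54, Cyp4f16 at 39.6 ± 7.01, Cyp4b1 at 37.3 ± 6.57, Cyp2c65 at 34.9 ± 10.1, Cyp2j6 at 30.6 ± 6.57 and Cyp2s1 at 30.1 ± 3.12 CPM per kilobase, each overlapping its neighbours in this order. Cyp3a11 was 11th of the members in vehicle, at 24.5 ± 8.75, and stood at 70.0 ± 26.9 CPM per kilobase with CPT-11. The xenobiotic gene Cyp1a1 stood at 1.21 ± 0.395 in vehicle, far below these.

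**Figure D2:**
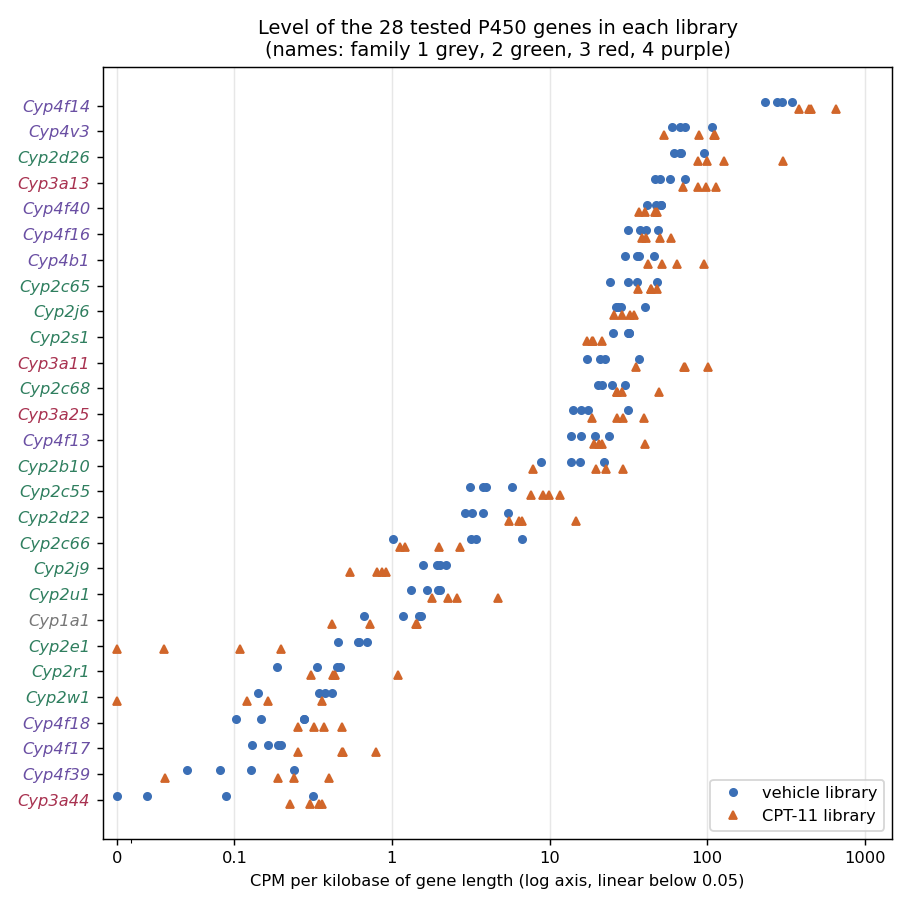
Level of each of the 28 tested P450 genes in each library (x axis: CPM per kilobase of gene length, log axis that is linear below 0.05), ordered by the vehicle mean; circles are vehicle libraries and triangles CPT-11 libraries. Cyp4f14 tops the order in both groups, and the called genes are spread from Cyp3a11 and Cyp2s1 among the higher levels to Cyp4f17 and Cyp2e1 among the lowest.

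By reads, family 4 held 61.8% of the summed CPM of all members in vehicle, family 2 24.8%, family 3 13.3% and family 1 0.160%. Family 3 summed to 224, 365, 233 and 241 CPM in vehicle replicates 1 to 4 and to 489, 555, 607 and 328 CPM in CPT-11 replicates 1 to 4, a ratio of means of 1.86. Only CPT-11 replicate 4 lay within the vehicle range, below vehicle replicate 2. For family 4 the sums were 1021, 1530.4, 1183 and 1203 CPM in vehicle libraries and 1626, 2389, 1792 and 1364 CPM under CPT-11, a ratio of 1.45. Family 2 summed to 434, 636, 470 and 438 CPM in vehicle libraries and 559.8, 979, 633 and 482 CPM under CPT-11, a ratio of 1.34. The groups overlapped in every family, and without CPT-11 replicate 2 the ratios were 1.79 for family 3, 1.29 for family 4 and 1.13 for family 2. Family 1 came to 1.87 to 3.98 CPM in vehicle libraries and 1.14 to 3.77 CPM under CPT-11.

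**Figure D3:**
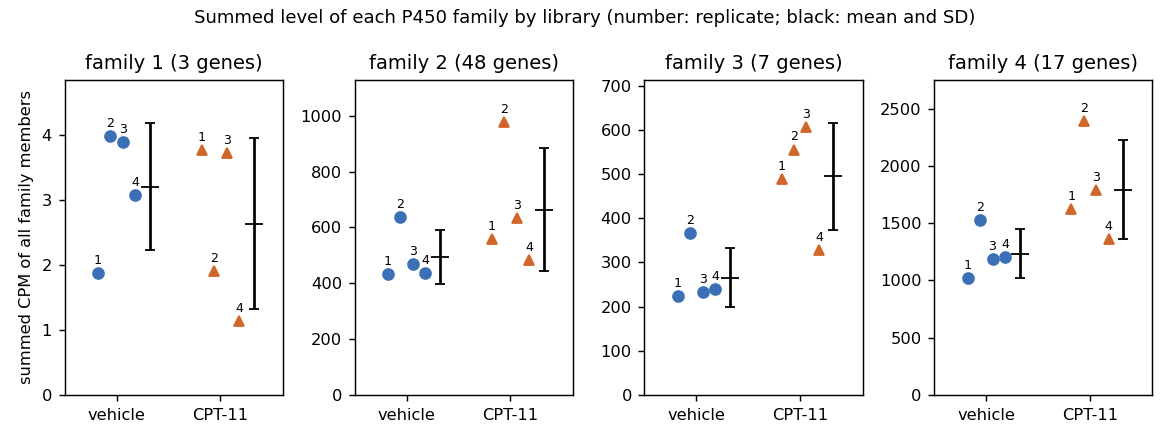
Summed CPM of all members of each family (y axis, from 0, own scale per panel) in each library, with the replicate number at each point and the mean and SD in black. In family 3 the CPT-11 libraries 1, 2 and 3 (489 to 607 CPM) stand above all vehicle libraries (224 to 365 CPM), while the groups overlap more widely in families 1 and 2.

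Family 3 in the mouse is the subfamily Cyp3a, whose enzymes oxidise many drugs, steroids and bile acids. Cyp3a11, the best known PXR-responsive gene of the mouse and an oxidase of many drugs, lies on chromosome 5, 145854426 to 145879964, minus strand (GRCm38). It stood at 52.7, 87.2, 49.2 and 40.5 CPM in vehicle replicates 1 to 4 and at 171, 167, 237 and 82.7 CPM in CPT-11 replicates 1 to 4. CPT-11 replicates 1 to 3 were all above the vehicle libraries, and CPT-11 replicate 4 lay just below vehicle replicate 2. Cyp3a11 rose 2.86-fold (log2 fold change 1.52 ± 0.32 SE, edgeR adjusted p = 0.0278). Leaving out vehicle replicate 1 (0.0979), 3 (0.104) or 4 (0.0787) or CPT-11 replicate 1 (0.0660) ended the call, with log2 fold changes between 1.28 and 1.78 over the 8 fits that left out 1 library. No window of 50 bases of its longest GENCODE transcript occurs in another gene, so its count does not rest on sequence shared with the other Cyp3a genes at that length.

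The promoter of Cyp3a11 is shown with those of Cyp2c55, which also rose, and of Cyp2s1 and Cyp2j9, which fell, so that the start regions of genes called in either direction can be read side by side. Each runs 5′ to 3′ on the gene's strand from 250 bases before the start to 50 after it (RefSeq, GRCm38.p6), and capitals mark the motif TGAACT.
Cyp3a11 chr5:145879805-145880104 -: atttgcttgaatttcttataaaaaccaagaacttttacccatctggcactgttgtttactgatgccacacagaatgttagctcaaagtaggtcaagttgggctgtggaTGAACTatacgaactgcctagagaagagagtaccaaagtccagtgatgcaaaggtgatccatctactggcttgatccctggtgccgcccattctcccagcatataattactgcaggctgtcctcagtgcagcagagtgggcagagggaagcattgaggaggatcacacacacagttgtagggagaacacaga
Cyp2c55 chr19:39006769-39007068 +: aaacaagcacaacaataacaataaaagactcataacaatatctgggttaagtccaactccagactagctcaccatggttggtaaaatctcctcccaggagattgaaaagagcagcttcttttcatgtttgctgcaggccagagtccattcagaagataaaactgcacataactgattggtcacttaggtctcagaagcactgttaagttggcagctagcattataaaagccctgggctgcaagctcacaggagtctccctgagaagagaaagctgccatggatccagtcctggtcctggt
Cyp2s1 chr7:25816476-25816775 -: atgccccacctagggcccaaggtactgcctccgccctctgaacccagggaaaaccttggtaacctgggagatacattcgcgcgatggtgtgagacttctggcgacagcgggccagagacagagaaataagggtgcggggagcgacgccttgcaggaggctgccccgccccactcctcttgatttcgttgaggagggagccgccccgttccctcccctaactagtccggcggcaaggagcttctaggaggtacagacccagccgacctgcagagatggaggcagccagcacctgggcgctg
Cyp2j9 chr4:96591436-96591735 -: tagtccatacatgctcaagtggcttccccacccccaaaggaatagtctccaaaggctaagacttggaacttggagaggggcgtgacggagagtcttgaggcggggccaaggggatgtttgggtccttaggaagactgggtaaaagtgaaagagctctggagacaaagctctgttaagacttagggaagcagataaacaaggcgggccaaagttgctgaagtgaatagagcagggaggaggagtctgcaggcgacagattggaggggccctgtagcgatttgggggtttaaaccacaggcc
Matches to 3 short motifs were searched on both strands, and none overlapped another in the promoters of tested members: TNGCGTG, the core that AHR and ARNT bind, TGAACT, a repeat unit of PXR and CAR sites, and GTTAAT, a unit of HNF1 sites. RefSeq promoters were found for 62 of the 75 members (69 promoters) and for 25 of the 28 tested (30 promoters). Among the 6 called genes the only match was TGAACT at -142 in Cyp3a11, and no promoter was found for Cyp4f17. TGAACT occurred in 10% of the promoters of tested members (those of Cyp3a11, Cyp4f13 and Cyp4v3), in 13% of those of all members and in 14% of all 32851 promoters. TNGCGTG occurred in 1 of the 30 promoters of tested members (Cyp2c68), or 3.33%, beside 5.07% of all promoters, and GTTAAT in 4 of 30 (Cyp2c68, Cyp2d26, Cyp4f14 and Cyp4f40), or 13.3%, beside 7.1%. A match only describes these letters in this window.

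Cyp3a13, a Cyp3a gene expressed in intestine, stood at 139, 214, 148 and 172 CPM in vehicle libraries and at 259, 335, 289.9 and 207 CPM under CPT-11. Only CPT-11 replicate 4 overlapped the vehicle libraries, and the gene did not pass (log2 fold change 0.70 ± 0.19, edgeR adjusted p = 0.0626). It passed with DESeq2 (0.00837), with the length trend removed (0.0392) and without CPT-11 replicates 2 and 4 (0.0204). Cyp3a25 stood at 31.6, 63.1, 34.9 and 28.1 CPM in vehicle libraries and at 58.3, 53.3, 79.3 and 37.3 CPM under CPT-11, for a log2 fold change of 0.53 (adjusted p = 0.277 by edgeR). Its groups overlapped, and 25.0% of its 50-base windows also occur in Cyp3a59, so reads of that length could be split between them. Cyp3a44, at 0.000 to 0.616 CPM in vehicle libraries and 0.445 to 0.711 CPM under CPT-11, did not pass either (log2 fold change 1.56 ± 0.79). Of the other family 3 genes taken by the rule, Cyp3a59 had up to 10.1 counts in a library and Cyp3a16 and Cyp3a57 had none.

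**Figure D4:**
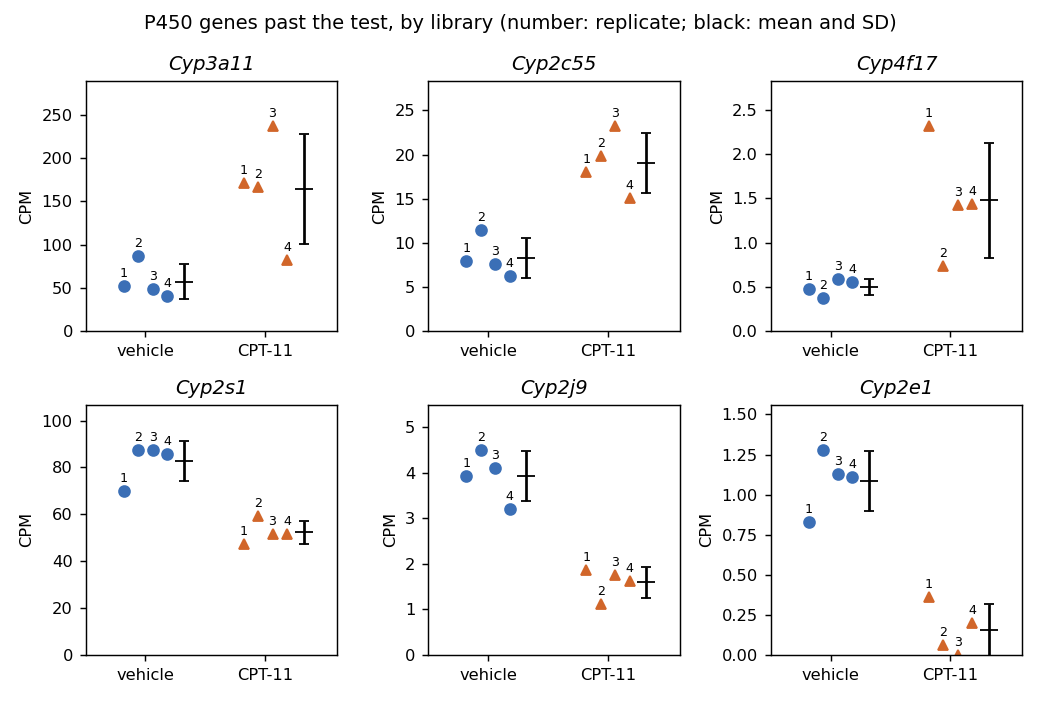
CPM (y axis, from 0) of the 6 P450 genes with an adjusted p below 0.05 in each vehicle (circles) and CPT-11 (triangles) library, with replicate numbers and the mean and SD in black (the lower SD bar of Cyp2e1 is cut off at 0). Groups are apart in all but Cyp3a11, where CPT-11 replicate 4 (82.7 CPM) lies below vehicle replicate 2 (87.2 CPM).

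In family 2, Cyp2c55 was the gene that rose. It encodes an arachidonic and linoleic acid hydroxylase of the gut and lies on chromosome 19, 39007019 to 39042693, plus strand. Its level was 7.93, 11.5, 7.56 and 6.23 CPM in vehicle replicates 1 to 4 and 18.03, 19.9, 23.2 and 15.1 CPM in CPT-11 replicates 1 to 4. Every CPT-11 library was above every vehicle library, and the rise was 2.30-fold (log2 fold change 1.20 ± 0.21, edgeR adjusted p = 0.0129). The call was lost without vehicle replicate 1 (0.0584) or 3 (0.0608), and the fold change lay between 1.08 and 1.39 on the log2 scale over all fits with 1 library left out.

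The neighbours of Cyp2c55 on chromosome 19 did not share this change at the test's threshold. Cyp2c65 stood at 69.7, 92.8, 60.6 and 46.4 CPM in vehicle libraries and at 85.0, 84.4, 93.0 and 70.4 CPM under CPT-11, for a log2 fold change of 0.30 ± 0.20 (edgeR adjusted p = 0.361). Cyp2c66 stood at 5.19, 10.8, 5.55 and 1.66 CPM in vehicle libraries and at 3.22, 1.97, 4.39 and 1.83 CPM under CPT-11, for a log2 fold change of -1.01 ± 0.50 (adjusted p = 0.237). These neighbours share 20.2% of the windows of Cyp2c65 and 20.4% of those of Cyp2c66, so their separate values are uncertain. Cyp2c68 stood at 35.1, 51.9, 37.3 and 42.9 CPM in vehicle libraries and at 46.3, 85.2, 49.6 and 46.3 CPM under CPT-11, with 43.3% of its windows shared with other genes and no call (adjusted p = 0.244). Summed over all 15 Cyp2c genes the level was 97.6 to 168 CPM in vehicle libraries and 134 to 193 CPM under CPT-11, a ratio of means of 1.31. Cyp2c55 shared only 1.13% of its windows.

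Cyp2b10, the classical target of CAR, stood at 24.8, 40.2, 28.6 and 16.1 CPM in vehicle libraries and at 36.1, 53.2, 41.3 and 14.3 CPM under CPT-11. The lowest and the highest library were both of the CPT-11 group, and the gene did not pass (log2 fold change 0.40 ± 0.38, edgeR adjusted p = 0.520). The 4 other Cyp2b genes had no count in any library.

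The Cyp2d genes were led by Cyp2d26, which lies with Cyp2d22 on chromosome 15. Cyp2d26 stood at 105, 164, 115 and 117 CPM in vehicle libraries and at 169, 514, 219 and 149 CPM under CPT-11. CPT-11 replicate 2 was 3.05 times the median of the other CPT-11 libraries, and the gene did not pass (log2 fold change 1.07 ± 0.37, edgeR adjusted p = 0.117), but did with DESeq2 (0.0346). Cyp2d22 stood at 8.11, 15.1, 8.89 and 10.4 CPM in vehicle libraries and at 18.5, 41.0, 17.7 and 15.4 CPM under CPT-11. Its groups did not overlap, yet it did not pass either (log2 fold change 1.123 ± 0.33, adjusted p = 0.0779), while DESeq2 gave 0.0137. Without CPT-11 replicate 2 the log2 fold changes were 0.53 for Cyp2d26 and 0.71 for Cyp2d22. Summed over the 8 Cyp2d genes the ratio of means was 2.10, and 1.44 without CPT-11 replicate 2. The pair shared 2.63% of the windows of Cyp2d22 and 5.33% of those of Cyp2d26.

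In family 2, 3 genes fell. Cyp2s1, a P450 of epithelia outside the liver that acts on retinoids and other lipids (chromosome 7, 25802475 to 25816913, minus strand), stood at 69.8, 87.5, 87.3 and 85.9 CPM in vehicle replicates 1 to 4 and at 47.5, 59.1, 51.6 and 51.4 CPM in CPT-11 replicates 1 to 4. All CPT-11 libraries were below all vehicle libraries, with vehicle replicate 1 below the other vehicle libraries. The gene fell by 0.66 on the log2 scale (SE 0.13, edgeR adjusted p = 0.0172), with the vehicle level 1.58 times that with CPT-11. It missed the threshold when vehicle replicate 2 (0.0521), 3 (0.0687) or 4 (0.0549) or CPT-11 replicate 1 (0.0592) was left out. Its start overlaps Gm26707 on the opposite strand, which had at most 6.02 counts in a library.

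Cyp2j9, an arachidonic acid hydroxylase gene on chromosome 4, 96568429 to 96591578, minus strand, stood at 3.92, 4.50, 4.09 and 3.199 CPM in vehicle libraries and at 1.86, 1.11, 1.76 and 1.63 CPM under CPT-11. It was lower in all 4 CPT-11 libraries and fell by 1.29 on the log2 scale (SE 0.24, edgeR adjusted p = 0.0146). Leaving out vehicle replicate 1 (0.0566) or 3 (0.0595) ended that call. No window of its transcript occurs elsewhere. Its neighbour Cyp2j6, the main Cyp2j gene of these cells, stood at 95.5, 145.5, 102 and 97.6 CPM in vehicle libraries and at 124, 92.8, 118 and 104 CPM under CPT-11. Cyp2j6 did not pass (log2 fold change -0.01 ± 0.17, adjusted p = 0.980), and its sign changed with the setting. The summed Cyp2j level, 97.5% of it from Cyp2j6, was 99.6 to 150.1 CPM in vehicle libraries and 94.1 to 126 CPM under CPT-11.

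Cyp2e1, which oxidises ethanol and other small molecules and is abundant in liver (chromosome 7, 140763739 to 140774987, plus strand), was near the limit of detection. Its estimated counts were 19.1, 27.1, 27.0 and 26.1 with vehicle and 8.04, 1.02, 0.00 and 4.02 with CPT-11, or 0.828 to 1.28 CPM and 0.000 to 0.363 CPM. The groups did not overlap, and the gene fell by 2.74 on the log2 scale (SE 0.65, edgeR adjusted p = 0.0406). Only vehicle libraries reached 10 counts, so the gene passed the expression filter through the group where it was higher. The call was lost without any 1 vehicle library (0.0939, 0.0980, 0.117 and 0.0916 for replicates 1 to 4), without CPT-11 replicate 4 (0.0914) and without CPT-11 replicates 2 and 4 together (0.0637). Alb, the defining transcript of hepatocytes, had 35, 3, 0 and 2 counts in vehicle replicates 1 to 4 and 0 in each CPT-11 library. Of 3 tested hepatocyte markers, 2 had a positive and 1 a negative fold change. All 6 hepatocyte markers summed to 8.20 to 9.62 CPM in vehicle libraries and 5.61 to 16.3 CPM under CPT-11. The part of hepatocyte RNA in the Cyp2e1 result was not tested.

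Cyp2u1, a fatty acid hydroxylase gene, stood at 5.80, 8.53, 8.85 and 7.29 CPM in vehicle libraries and at 7.81, 20.7, 11.4 and 9.94 CPM under CPT-11, for a log2 fold change of 0.71 ± 0.29 (edgeR adjusted p = 0.173). CPT-11 replicate 2 was again the highest. Cyp2r1, the vitamin D 25-hydroxylase gene, and Cyp2w1, an orphan P450, stayed under 2 CPM in every library and did not pass (log2 fold changes 0.64 and -0.90, adjusted p = 0.424 and 0.427).

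In family 4, Cyp4f14 had the highest level of all members. It encodes a hydroxylase of leukotriene B4 and other lipids and lies on chromosome 17, 32905070 to 32917342, minus strand. Its level was 519, 766, 619.5 and 666 CPM in vehicle replicates 1 to 4 and 983, 1467, 1010.1 and 845 CPM in CPT-11 replicates 1 to 4. Every CPT-11 library was above every vehicle library, but the gene did not pass (log2 fold change 0.74 ± 0.21, edgeR adjusted p = 0.0667). It passed with DESeq2 (0.00567), with the length trend removed (0.0396), without CPT-11 replicate 2 (0.0422) and without CPT-11 replicates 2 and 4 (0.0213).

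Cyp4f17, in the same cluster (chromosome 17, 32506050 to 32530143, plus strand), was the family 4 gene that rose. It was expressed at a low level, 0.480, 0.379, 0.585 and 0.555 CPM in vehicle libraries and 2.32, 0.740, 1.42 and 1.43 CPM under CPT-11. All CPT-11 libraries were higher, replicate 2 by the least, and the log2 fold change was 1.56 ± 0.38 (edgeR adjusted p = 0.0455). The call was lost without any 1 vehicle library (0.132, 0.118, 0.117 and 0.0985 for replicates 1 to 4), without CPT-11 replicate 1 (0.114) or 4 (0.0893), with no filter (0.0592) and with limma-voom (0.0598). A low gene of the cluster with the opposite pattern, Cyp4f15, had 7, 13, 23 and 11 counts with vehicle and 2, 1, 0 and 0 with CPT-11. It missed the expression filter and so was not tested in the main analysis. With no filter it fell (log2 fold change -3.83 ± 0.84, edgeR adjusted p = 0.0145). The filter also kept Cyp4f15 in 6 fits with libraries left out, through vehicle libraries alone, so they give no separate support for a fall. It fell in those lacking vehicle replicate 1 (0.0449), CPT-11 replicate 1 (0.0384), 2 (0.0197) or 3 (0.0333), or CPT-11 replicates 2 and 4 (0.0401), where it counts among the members lower, and did not pass in that lacking CPT-11 replicate 4 (0.0565).

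The remaining genes of family 4 did not pass. Cyp4b1, which oxidises fatty acids and several protoxins, stood at 57.3, 87.3, 69.9 and 67.8 CPM in vehicle libraries and at 97.8, 181, 122 and 80.0 CPM under CPT-11, for a log2 fold change of 0.77 ± 0.24 (edgeR adjusted p = 0.0959, but 0.0317 with DESeq2 and 0.0296 without CPT-11 replicates 2 and 4). Only CPT-11 replicate 4 overlapped the vehicle libraries. Cyp4v3, a fatty acid hydroxylase gene, stood at 257, 411, 275 and 228 CPM in vehicle libraries and at 340.2, 429, 419.6 and 203 CPM under CPT-11, for a log2 fold change of 0.25 (adjusted p = 0.569). Its highest and lowest libraries were both of the CPT-11 group.

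Among the other Cyp4f genes, Cyp4f13 stood at 24.1, 41.7, 27.7 and 34.2 CPM in vehicle libraries and at 33.6, 71.0, 36.3 and 37.9 CPM under CPT-11. For Cyp4f16 the values were 71.0, 109, 84.0 and 91.8 CPM in vehicle libraries and 87.1, 131, 112 and 91.7 CPM under CPT-11, and 24.8% of its windows occur in Cyp4f37. Cyp4f40 was the only tested family 4 gene with a negative fold change, at 91.4, 113, 105 and 112 CPM in vehicle libraries and 81.6, 107, 88.8 and 104 CPM under CPT-11. The groups of all these genes overlapped, and their log2 fold changes were 0.48, 0.25 and -0.15 (edgeR adjusted p = 0.279, 0.391 and 0.502). Cyp4f18, a leukotriene B4 hydroxylase gene of neutrophils, and Cyp4f39, which serves ceramide synthesis in skin, were at or below 1.05 CPM in every library (log2 fold changes 0.83 and 0.75, adjusted p = 0.255 and 0.502). The summed Cyp4f level did not overlap between groups, at 707 to 1032 CPM in vehicle libraries and 1081 to 1778 CPM under CPT-11, and 78.3% of it came from Cyp4f14.

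In family 1, Cyp1a1, the main target gene of AHR in gut and liver, stood at 1.74, 3.98, 3.88 and 3.07 CPM in vehicle libraries and at 3.77, 1.91, 3.72 and 1.09 CPM under CPT-11. Each group held values at both ends of the range, and the gene did not pass (log2 fold change -0.26 ± 0.41, edgeR adjusted p = 0.714). Without CPT-11 replicates 2 and 4 its fold change turned positive (0.25, adjusted p = 0.669). Cyp1a2 and Cyp1b1 had at most 2.06 and 1 count in a library.

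Of the 47 members that were not tested, 19 had no count in any library, which in a library allows up to 0.125 to 0.185 CPM (3 counts, counting error only). They were all members but 1 of Cyp2b, Cyp2g1, and some of Cyp2a, Cyp2c, Cyp2d, Cyp2j, Cyp3a and Cyp4a. Of the 28 with a count, 5 reached 10 in a library, Cyp2c23 (4 to 15 counts), Cyp2c67 (0 to 10.0), Cyp2d40 (0 to 12), Cyp3a59 (0 to 10.1) and Cyp4f15. Groups did not overlap for Cyp2d40 (higher with CPT-11), Cyp3a59 (lower) and Cyp4f15 (lower), all on few counts and untested in the main analysis. Cyp4a genes encode fatty acid hydroxylases that PPAR alpha induces in liver. None of the 5 taken by the rule exceeded 5.00 counts in a library, in either group.

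The genes that supply P450 enzymes with electrons and haem did not pass. Of 21 such genes, all tested, 0 were higher and 0 lower by edgeR (median log2 fold change 0.11). Over all genes tested 2.98% were higher and 2.52% lower. At an unadjusted p below 0.05, 3 of the 21 were higher and 2 lower, beside 13.4% and 11.2% of all genes. DESeq2 called 1 higher and 0 lower, beside 7.47% and 6%, and limma-voom called 0 in either direction. Por, the reductase of all microsomal P450 enzymes, stood at 82.8 ± 8.46 CPM in vehicle libraries and 83.2 ± 9.02 CPM under CPT-11, for a log2 fold change of 0.01 ± 0.13 (adjusted p = 0.979).

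Genes for the regulators named above did not pass. Nr1i2, which encodes PXR, stood at 77.2 ± 8.09 CPM in vehicle libraries and 75.0 ± 2.12 CPM under CPT-11 (n = 4 each, log2 fold change -0.04 ± 0.11, edgeR adjusted p = 0.837), and Nr1i3, which encodes CAR, at 16.5 ± 4.57 and 16.6 ± 9.66 CPM (log2 change 0.00 ± 0.35, adjusted p = 0.994). Ahr stood at 8.70 ± 1.54 and 6.26 ± 1.65 CPM, for a log2 fold change of -0.47 ± 0.23 (adjusted p = 0.228). Of 22 tested xenobiotic and lipid nuclear receptors 1 rose and 1 fell by edgeR, with 16 negative fold changes (median -0.14). Over all genes tested 2.98% were higher and 2.52% lower. DESeq2 called 1 receptor higher and 7 lower, beside 7.47% and 6% of all genes. With limma-voom 1 was higher and 2 lower, beside 2.95% and 2.72%. At an unadjusted edgeR p below 0.05, 2 were higher and 8 lower, beside 13.4% and 11.2%. Rarg, a retinoic acid receptor gene, rose from 1.91 ± 0.148 to 5.60 ± 1.98 CPM (adjusted p = 0.0125, but 0.0515 and 0.0511 without vehicle replicate 1 or 3). Nr5a2, an orphan receptor gene of gut crypts and liver, fell from 43.7 ± 4.39 to 25.3 ± 5.18 CPM (adjusted p = 0.0239, but 0.0877, 0.0804 and 0.0693 without vehicle replicate 1, 3 or 4 and 0.0557 without CPT-11 replicate 4).

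Of 8 tested genes of the AHR pathway 2 rose and 0 fell (median -0.13), beside 2.98% of all genes tested higher and 2.52% lower. DESeq2, limma-voom and the unadjusted threshold of 0.05 also gave 2 higher and 0 lower each. The shares of all genes higher were 7.47%, 2.95% and 13.4% in turn. The genes that rose were Nqo1, a quinone reductase that NRF2 also induces (23.3 ± 2.44 to 36.1 ± 5.22 CPM, edgeR adjusted p = 0.0343), and Arnt2, a dimer partner of the AHR family (1.41 ± 0.392 to 3.87 ± 1.14 CPM, adjusted p = 0.0218). The call of Nqo1 was lost without any 1 vehicle library (0.116, 0.0956, 0.0729 and 0.102 for replicates 1 to 4) and without CPT-11 replicate 1 (0.0934) or 4 (0.0827). Arnt2 missed the threshold when vehicle replicate 1 (0.0825), 3 (0.0847) or 4 (0.0645) or CPT-11 replicate 1 (0.0613) was left out.

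Of 19 tested enzymes that act on the epoxides, aldehydes and ketones made by P450 oxidation, 5 rose and 0 fell by edgeR (median log2 fold change 0.45). Over all genes tested 2.98% were higher and 2.52% lower. At an unadjusted p below 0.05, 10 of these enzymes were higher and 3 lower, beside 13.4% and 11.2% of all genes. DESeq2 called 6 higher and 1 lower, beside 7.47% and 6%. With limma-voom 5 were higher and 0 lower, beside 2.95% and 2.72%. Akr1b8, an aldose reductase family gene, rose from 3.46 ± 0.590 to 29.8 ± 6.39 CPM (adjusted p = 6.18e-05), Cbr3, a carbonyl reductase gene, from 0.261 ± 0.151 to 2.31 ± 0.930 CPM (adjusted p = 0.00966), and Ephx1, the microsomal epoxide hydrolase gene, 6.71-fold (adjusted p = 9.26e-06). Aldh1a1, a retinaldehyde dehydrogenase gene, rose 1.86-fold (adjusted p = 0.00914) and Akr1b7 1.75-fold (adjusted p = 0.0259, but 0.0721, 0.0988 and 0.0738 when vehicle replicate 1, vehicle replicate 3 or CPT-11 replicate 1 was left out). Of 7 tested flavin monooxygenases and other oxidases 0 were called in either direction by edgeR, DESeq2 or limma-voom. At an unadjusted edgeR p below 0.05, 0 were higher and 1 was lower, beside 13.4% and 11.2% of all genes.

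Of P450 genes outside families 1 to 4, 6 of 21 were tested. By edgeR 1 of them rose and 1 fell, beside 2.98% and 2.52% of all genes tested. Cyp39a1, an oxysterol hydroxylase gene, fell from 9.01 ± 0.685 to 3.54 ± 1.13 CPM (edgeR adjusted p = 0.0121, but 0.0505 without vehicle replicate 3). Ptgis, the prostacyclin synthase gene, rose from 1.15 ± 0.619 to 4.46 ± 1.44 CPM (adjusted p = 0.0306, but 0.0954 and 0.0809 without vehicle replicate 3 or 4 and 0.0544 and 0.0674 without CPT-11 replicate 1 or 4). Among 12 tested genes of eicosanoid synthesis and breakdown only Ptgr1, a prostaglandin and leukotriene reductase gene, was called by edgeR. DESeq2 called 2 of the 12 higher, beside 7.47% of all genes, and limma-voom 1, beside 2.95%. At an unadjusted edgeR p below 0.05, 2 were higher, beside 13.4%, and 0 were lower in any of these counts. Ptgr1 rose 1.61-fold (edgeR adjusted p = 0.0443). That call did not hold in fits lacking vehicle replicate 1 (0.147), 3 (0.138) or 4 (0.116), CPT-11 replicate 1 (0.103) or 4 (0.0931), or CPT-11 replicates 2 and 4 together (0.0683).

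Levels of enterocyte markers are given here beside those of the P450 genes. The 21 enterocyte markers, all tested, summed to 15120.1 to 23488 CPM in vehicle libraries and 24368 to 70423 CPM under CPT-11, with no overlap. All 21 had a positive fold change (median 0.74). Of them, 2 rose by edgeR and 2 by limma-voom, beside 2.98% and 2.95% of all genes tested. DESeq2 called 7 higher, beside 7.47% of all genes. At an unadjusted edgeR p below 0.05, 10 were higher, beside 13.4% of all genes. None was lower in these counts. CPT-11 replicate 2 held the 70423 CPM, against at most 33114 CPM in the others, and 54436 CPM of it came from Apoa1, Fabp2 and Fabp6. These 3 markers summed to 6636 to 11147 CPM in vehicle libraries and 15489 to 54436 CPM under CPT-11, with no overlap. The split was not planned and was made with these values known. In vehicle libraries the other 18 markers summed to 8484 to 12340.5 CPM. In CPT-11 replicates 1 to 4 they summed to 12328, 15987, 15599 and 8879 CPM, so that the groups overlapped. Of the 21 markers, 12 were highest of the CPT-11 libraries in replicate 2 and 7 in replicate 3, and 19 were lowest in replicate 4.

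CPT-11 replicate 2 was the highest CPT-11 library for 15 of the 28 tested P450 genes (53.6%, beside 35.7% of all genes tested), among them Cyp2d26, Cyp4f14 and Cyp4b1. CPT-11 replicate 4 was the lowest for 14 of them (50%, beside 18.3% of all genes tested). Among vehicle libraries, replicate 2 was the highest for 24 (85.7%, beside 24.4% of all genes tested) and for 17 of the enterocyte markers. Summed markers of goblet, Paneth and enteroendocrine cells, B and plasma cells, T cells, hepatocytes and pancreatic acinar cells were also highest of the CPT-11 libraries in replicate 2. Cyp3a11 and Cyp2c55 were highest in CPT-11 replicate 3, as were the 7 enterocyte markers Alpi, Anpep, Apob, Mgam, Mttp, Sis and Slc5a1, and replicate 2 was the lowest CPT-11 library for Cyp4f17. Leaving out CPT-11 replicate 2, the log2 fold changes by edgeR were 1.52 for Cyp3a11, 1.19 for Cyp2c55 and -0.71 for Cyp2s1. The part of cell composition in the P450 results was not tested.

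**Figure D5:**
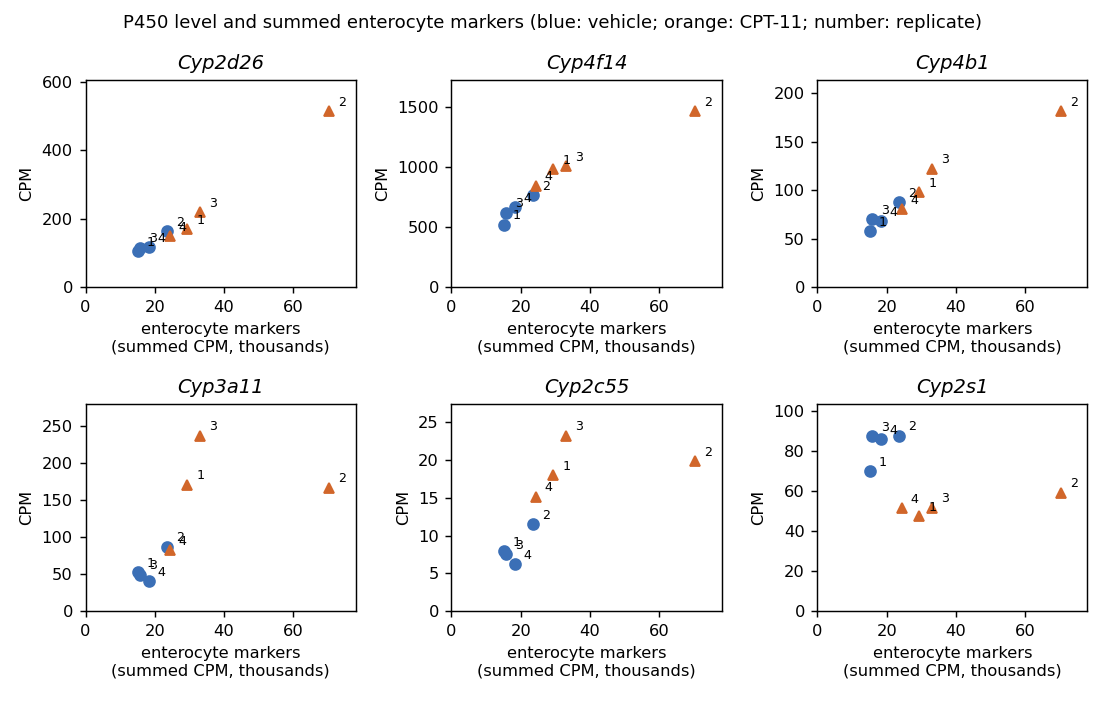
CPM of 6 P450 genes (y axis, from 0) against the summed CPM of 21 enterocyte markers (x axis, in kCPM) in each vehicle (circles) and CPT-11 (triangles) library, with replicate numbers. Cyp2d26, Cyp4f14 and Cyp4b1 are highest in CPT-11 replicate 2, the library with 70423 CPM of these markers, whereas Cyp3a11 and Cyp2c55 are highest in CPT-11 replicate 3 and Cyp2s1 is lower in all CPT-11 libraries.

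Markers of other cells are given for the same libraries. The 7 stem cell markers summed to 1558 to 1861 CPM in vehicle libraries and 485 to 733 CPM under CPT-11. By edgeR 4 of 7 fell, beside 2.52% of all genes tested. The 7 Paneth cell markers summed to 45547 to 63208 and 28058 to 56047 CPM, the 7 goblet cell markers to 11534 to 15360 and 11172 to 38963 CPM, the 8 enteroendocrine markers to 355 to 417 and 369 to 714 CPM and the 7 tuft cell markers to 35.6 to 49.0 and 30.0 to 40.1 CPM. B and plasma cell markers, 4 of 5 tested of which rose (beside 2.98% of all genes tested), came to 1.44 to 5.89 and 7.45 to 16.1 CPM. Markers of macrophages and dendritic cells came to 35.1 to 48.3 and 36.5 to 53.0 CPM, of T cells to 55.5 to 145 and 93.1 to 158 CPM, of fibroblasts and smooth muscle to 7.80 to 41.6 and 16.5 to 104 CPM and of endothelium to 4.09 to 5.23 and 4.56 to 7.57 CPM. Hepatocyte markers came to 8.20 to 9.62 and 5.61 to 16.3 CPM and pancreatic acinar markers to 3.16 to 6.18 and 4.90 to 10.98 CPM, of which Prss2, Pnlip and Amy2a5 had no count.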

How the data were processed

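The authors deposited expected counts per gene, that is estimated counts that need not be whole, with no normalization. Per the submitters' processing notes, Bowtie2 2.4.1 and genome build GRCm38.p6 were used, while the counting tool and its strand setting are not stated in any source used here. Per the file headers the table also gives a gene length in bases. Of 56030 rows, 543 without a gene name (0.325% to 0.662% of a library's count) were left out. Rounded counts entered edgeR 4.0.16 (R 4.3.3; TMM scaling, default expression filter, robust quasi-likelihood F test, two-sided), and p-values were adjusted by Benjamini-Hochberg over the 14011 genes tested. The test was checked on simulated data. Alternatives used DESeq2 1.42.0 and limma-voom (limma 3.58.1), other scalings and filters, the replicate number as a block, subtraction of a gene-length trend per library, and libraries left out. CPM refers to TMM-scaled libraries. Summed family levels have no test. The members, gene lists and alternatives were chosen with earlier results of these data known. Every tested member is named, with values per library where it was called or had a mean of at least 5 CPM in a group; from other lists, called genes and Ahr, Nr1i2, Nr1i3, Por and Ephx1 are named. Cyp4f15 is one of 5 members named for 10 counts in a library. Coordinates are from GENCODE M21, and shared windows of 50 bases were counted in its transcripts.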

Additional observations from a re-analysis of the deposited data

Results flagged for a closer look

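Of 64 groups of 4 libraries examined for a value far from the others (28 tested genes and 4 family sums, in each treatment), 7 were flagged, where chance flags about 1 in 20. CPT-11 replicate 2 was far above the other CPT-11 libraries for Cyp2c68 (85.2 CPM, against at most 49.6), Cyp2d22 (41.0 CPM, against at most 18.5), Cyp2r1 (1.79 CPM, against at most 0.711) and Cyp4f13 (71.0 CPM, against at most 37.9). Vehicle replicate 2 was far above the other vehicle libraries for Cyp2j6 (145.5 CPM, against at most 102) and for the summed family 3 (365 CPM, against at most 241). Vehicle replicate 1 was far below them for Cyp2s1 (69.8 CPM, against at least 85.9).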

How the results depend on the processing

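The members higher with CPT-11 numbered 3, and 8 with DESeq2, 5 with the length trend removed, 6 without CPT-11 replicates 2 and 4 together and 0 to 4 with 1 library left out. The members lower numbered 3, and 0 to 4 with 1 library left out. Genes called numbered 770 in all, and 1884 with DESeq2, 1285 with the length trend removed, 1212 without CPT-11 replicates 2 and 4 and 236 to 1522 with 1 library left out. The cause of these differences was not tested. Same-numbered libraries share only a number: their deviations correlated at 0.23, 0.14, -0.12 and 0.09 across genes for replicates 1 to 4. With the replicate block 3 members were higher and 2 lower, of 686 genes called; Cyp2d22 was called (adjusted p = 0.0255), and Cyp4f17, Cyp2e1 and Nqo1 were not (0.0675, 0.0735 and 0.0803). Signs turned, none of them in a called gene: Cyp1a1 from -0.26 to 0.25 without CPT-11 replicates 2 and 4, Cyp2j6 to 0.0023 with limma-voom, 0.0070 with the block, 0.072 with the length trend removed, 0.14 without CPT-11 replicates 2 and 4 and up to 0.14 with 1 library left out (from -0.075), and Nr1i2 to 0.0093 without vehicle replicate 2 (from -0.097 in others). Nr1i3 turned to -0.0023 with upper-quartile scaling, -0.030 with no filter, -0.12 with limma-voom, -0.098 with the block, -0.21 with the length trend removed, -0.34 without CPT-11 replicates 2 and 4 and between -0.47 and 0.19 with 1 library left out. Por turned to -0.020 with no filter, -0.026 without CPT-11 replicates 2 and 4 and between -0.043 and 0.074 with 1 library left out. Over the named genes, 648 of the values were counted as unchanged, 59 lost and 12 gained the call and 24 turned sign. The 648 include the subfamily sums of Cyp2e1 and Cyp2s1, which have a direction but no call. With reads summed by subfamily, which leaves no test, the log2 ratio of group means for the subfamilies of called genes with several members was 0.90 for Cyp3a, 0.39 for Cyp2c, 0.60 for Cyp4f and -0.04 for Cyp2j. Members below about 1 CPM rest on few counts.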
